A study of Homo sapiens with 4 samples.

Results

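SNARE proteins and the factors that steer them were compared at the mRNA level between U87 cells carrying a hairpin against PTPRN and control U87 cells. U87 is an established human glioma cell line. The gene set was chosen by name: every gene of the deposited tables called STX, VAMP, SYT, SYTL, STXBP or SNAP followed by a number and at most 1 letter, plus SNAPIN, NAPA and NSF. This rule found 60 genes among 28189 gene symbols. The shPTPRN3 group (2 libraries) was infected with lentivirus that delivers an shRNA directed at PTPRN, a phosphatase-like membrane protein of dense-core secretory vesicles. The shNC group (2 libraries) received lentivirus from the empty FUGW-H1 vector according to the protocol, whereas the series' design text names that control H1-RFP (WT). Both groups were grown in the same medium with fetal bovine serum. No non-targeting hairpin and no second hairpin against PTPRN was analysed here, so effects of this one hairpin sequence and of lower PTPRN cannot be told apart. The libraries are called biological replicates, with no word on whether cultures were separate. The p-values reflect library-to-library spread alone, much of it borrowed from other genes, and that spread may be technical. In such bulk RNA, fewer cells expressing a gene and less of its RNA per cell cannot be told apart.

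Membrane fusion in cells is driven by SNARE proteins, which sit on vesicles (the VAMPs) and on target membranes (the syntaxins and the SNAP25 family) and zip into a helical bundle that pulls the membranes together. Syntaxin-binding proteins of the Munc18 type guide the assembly, synaptotagmins couple it to calcium, and the ATPase NSF with its adaptor NAPA takes the spent bundles apart. In neurons and endocrine cells this machinery releases transmitter and hormone, and PTPRN resides on one of the vesicle types it serves. Every cell also uses other members of the same families for traffic between the endoplasmic reticulum, Golgi, endosomes and lysosomes.

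The values are FPKM, fragments scaled to transcript length and to the size of the library, which can be compared between genes because they are given per length. They were scaled between libraries, and "scaled FPKM" is meant below unless a value is called deposited. PTPRN had 4.96 and 3.62 scaled FPKM in the shPTPRN3 libraries, against 27.6 and 19.8 in the shNC libraries. It fell to 18.1% of its shNC level in shPTPRN3 (log2 fold change -2.22 ± 0.36, SE; adjusted p = 0.0269 by limma). An exact permutation test on 2 against 2 values cannot go below p = 0.333, two-sided, which is what PTPRN gave. Depth, estimated from the deposited confidence intervals, lay between 11.2 and 26.8 M fragments per library, and the median half-width of those intervals for the set's genes was 6.79% to 11.7% of the value. As for cell identity, of 8 glioma and mesenchymal markers VIM (1193 to 2098 scaled FPKM) and CD44 (84.6 to 97.7) were high. GFAP was listed at 0 in all libraries, SOX2 stayed at or below 0.245 and S100B at or below 0.204. CHI3L1 had 664 and 332 in shPTPRN3, against 375 and 298 in shNC, and TNC 73.8 and 64.9, against 22.2 and 60.3. NES had 1.30 and 0.972 in shPTPRN3, against 2.35 and 4.01 in shNC. The list summed to 2724 and 1686 in shPTPRN3, against 2582 and 2152 in shNC. Among neuronal markers outside the set, RBFOX3, STMN2, ELAVL3, ELAVL4 and INA stayed at or below 0.111 scaled FPKM in every library and SYP between 0.339 and 0.777. The neuron list summed to 37.0 and 18.2 in shPTPRN3, against 10.7 and 11.3 in shNC; 3 of its 9 genes reached 1 in every library, and all 3 belong to the set itself, SNAP25 and SYT1 among them. Of 4 neuroendocrine markers, CHGA was listed at 0 throughout and CHGB did not exceed 0.478. SCG2 had 8.54 and 7.05 in shPTPRN3, against 2.43 and 1.85 in shNC, whereas SCG5 had 11.3 and 3.57 in shPTPRN3, against 15.3 and an exact 0 in shNC. The neuroendocrine list summed to 20.4 and 11.0 in shPTPRN3, against 18.0 and 2.12 in shNC. Of 4 immune markers, PTPRC did not exceed 0.212 and AIF1 0.144, CSF1R lay between 0.698 and 2.17, and CD68, a lysosomal protein of macrophages that other cells also make, had 434 and 326 in shPTPRN3, against 225 and 253 in shNC. Their sum was 436 and 327 in shPTPRN3, against 227 and 255 in shNC. The part of these markers in the results was not tested.

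The hairpin's target and the site most like it among the set's transcripts are shown because that second site belongs to STX2, which had the lowest fold change with all 4 libraries in the fit. Capitals mark bases equal to the target:
PTPRN target: GGAAGTCTGTATTCAGGATGG
STX2 site: tGAAGTCTGaATTtAaGAcGG

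The target matched PTPRN and no other annotated gene. It spans the end of exon 2 (chr2:219307792-219307808) and the start of exon 3 (chr2:219307554-219307557) in the coding sequence, on the minus strand (GRCh38, GENCODE 29, transcript ENST00000409251.7). The STX2 site equals it at 16 of 21 bases and lies in the 3' UTR, in exon 10 of transcript ENST00000261653.10 (chr12:130790730-130790750, minus strand). A sense match of 16 or more bases was present in 1.31% of the 10763 tested genes with an annotated transcript and in 1 of the 35 tested members. Whether the hairpin acts on STX2 was not tested.

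Of the 60 genes, 35 were above 0 in every library with a mean of at least 1 scaled FPKM and entered the test. Another 24 had a mean below 1, 20 of them below 0.5 in every library, and SYT2 and SYTL4 were listed at 0 in all 4. The last gene, SNAPIN, was listed at 0 in both libraries of one group and is described separately below the tested genes. The tested member with the lowest mean was SYT1 (1.79 scaled FPKM), and the untested one with the highest was STXBP4 (0.763). Expression was concentrated in the general fusion machinery. All 7 VAMP genes, all 9 syntaxins of the Golgi, endosomes and endoplasmic reticulum and all 4 SNAP25-family genes reached 1 scaled FPKM in every library. Of 8 synaptotagmins with calcium-binding domains 1 did so, and of the 9 others 1.

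**Figure D1:**
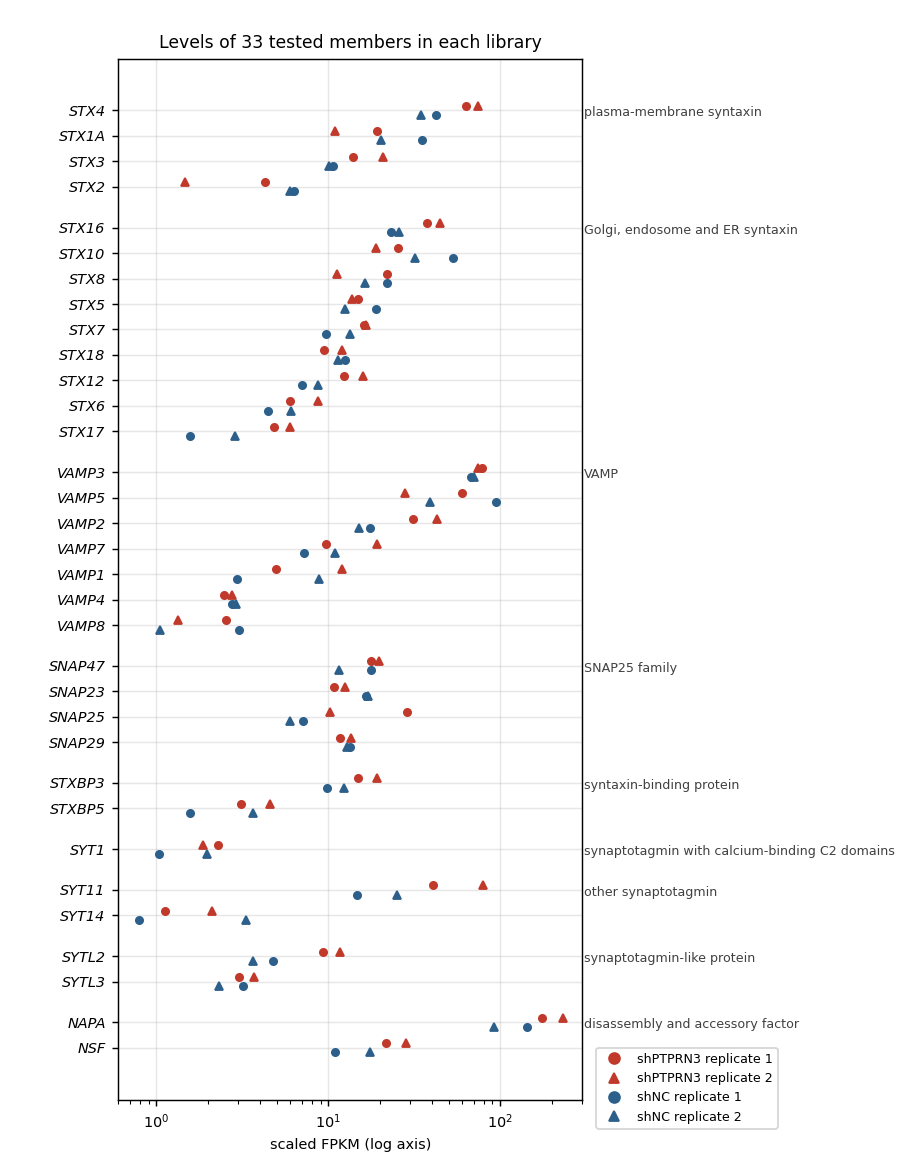
Scaled FPKM (log axis) of 33 tested genes in each library, grouped by role; red marks shPTPRN3, blue shNC, circles replicate 1 and triangles replicate 2. NAPA, at 92.3 to 231, had the highest values; STX4 led the plasma-membrane syntaxins in every library.

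Over all 11125 genes tested, limma called 42 higher (0.378%) and 175 lower (1.57%) in shPTPRN3 at an adjusted p under 0.05, together 1.95% of genes. None of the 35 tested members was among them (limma), and their smallest adjusted p was 0.130, for SYT11. At an unadjusted p under 0.05, 7 members were higher and 2 lower, or 25.7% of the 35 together, where 6.42% of all genes were higher, 8.23% lower and 14.7% either. Both shPTPRN3 values lay above both shNC values for 15 members, against 21.7% of all genes, and below them for 5, against 23% of all genes, so that 20 of the 35 did not overlap, against 44.8% of all genes. The log2 fold change was above 0 for 23 members (65.7%, against 49.7% of all genes), 1 or more for 6 (3.65% of all genes) and -1 or less for 0 (5.44% of all genes). The median log2 fold change of the tested members was 0.40, against 0.00 over all genes, with 0.35 from the number 1 libraries alone and 0.40 from the number 2 libraries alone. These counts describe the genes that passed the filter, not all 60. Single libraries moved the estimates. Leaving out each library in turn gave log2 fold changes of 1.04 to 1.99 for SYT11 and of 0.57 to 1.97 for SNAP25. SNAP25 was lowest without shPTPRN3 replicate 1 and highest without shPTPRN3 replicate 2.

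**Figure D2:**
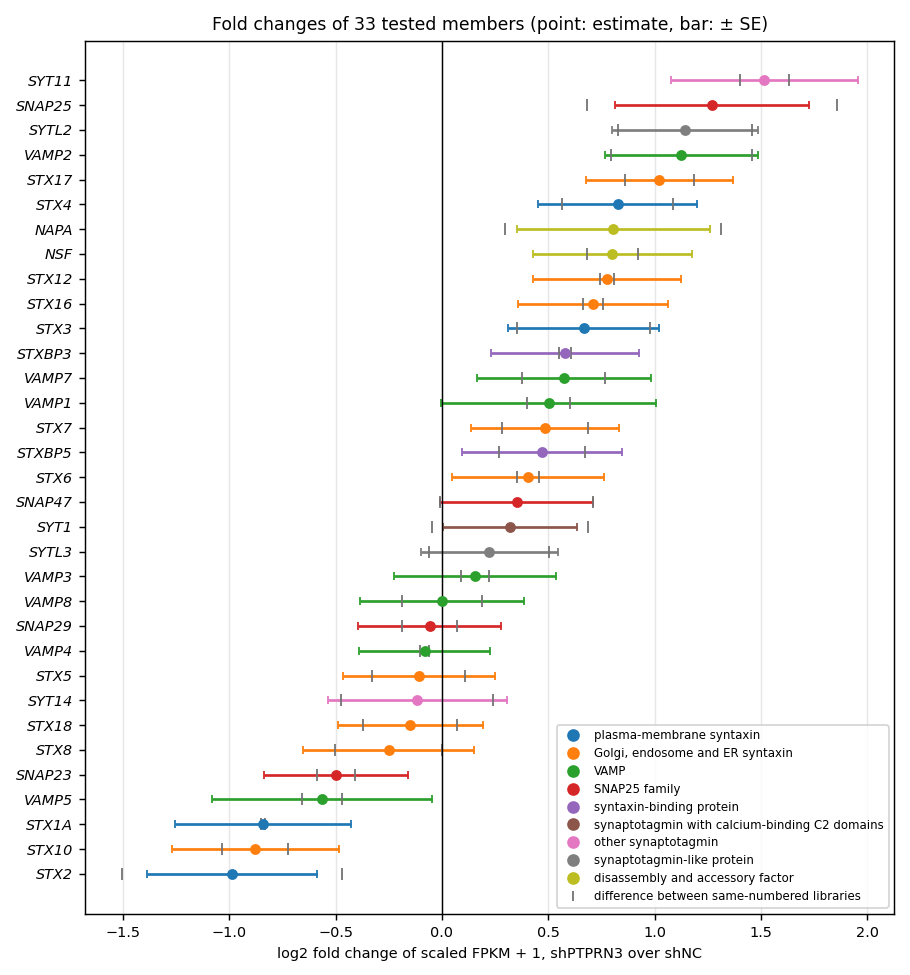
Log2 fold change of scaled FPKM + 1, shPTPRN3 over shNC, for 33 tested genes, coloured by role; bars are ± SE from limma and grey ticks the differences between libraries with the same number. Values run from -0.99 for STX2 to 1.52 for SYT11, with 21 of those drawn above 0 and 12 below.

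The syntaxins of the plasma membrane, which receive secretory vesicles, went in both directions. STX4, the widely expressed form that serves regulated and constitutive secretion, had 63.3 and 74.4 scaled FPKM in shPTPRN3, against 42.4 and 34.5 in shNC. Its groups did not overlap (log2 fold change 0.83, SE 0.37; limma, adjusted p = 0.342). STX1A, the main syntaxin of transmitter release, had 19.0 and 11.0 in shPTPRN3, against 35.2 and 20.3 in shNC. Both shPTPRN3 values were lower, but shNC replicate 2 was close to shPTPRN3 replicate 1 (log2 fold change -0.84, SE 0.41; limma, adjusted p = 0.382). STX2 had 4.25 and 1.46 in shPTPRN3, against 6.29 and 5.97 in shNC. The knockdown libraries differed from each other more than the control libraries did (log2 fold change -0.99, SE 0.40; limma, adjusted p = 0.286). Leaving out each library in turn gave -1.54 to -0.44 for STX2, and without shPTPRN3 replicate 2 STX10 (-0.68), SNAP23 (-0.60) and STX1A (-0.47) were lower than STX2. STX3, an apical-membrane syntaxin in epithelia, had 13.8 and 20.8 in shPTPRN3, against 10.6 and 10.1 in shNC (limma, adjusted p = 0.425). STX4 made up 59.6% and 65.6% of the summed scaled FPKM of the plasma-membrane syntaxins in shPTPRN3, against 44.1% and 46.9% in shNC. STX11 and STX19 stayed below 0.1 scaled FPKM.

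**Figure D3:**
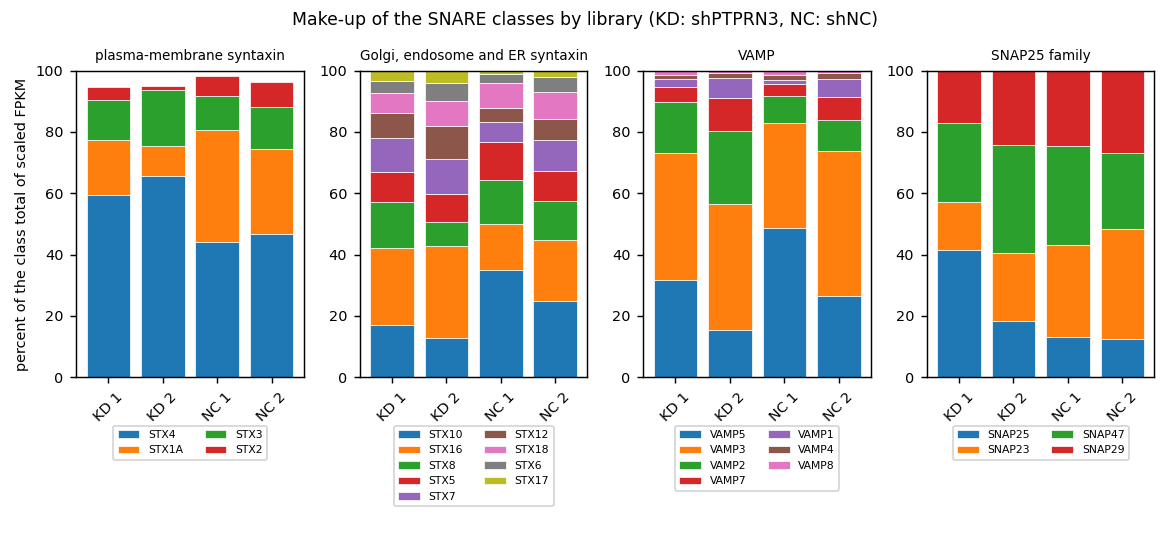
Share of each gene in the summed scaled FPKM of its class (percent) in the shPTPRN3 (KD) and shNC (NC) libraries, for genes that reach 1% in a library; not every gene is drawn, so bars can end below 100%. STX4 takes a larger part of the plasma-membrane syntaxins in both KD libraries, and STX10 a smaller part of the intracellular ones (17.2% and 12.8%, against 34.9% and 24.7% in shNC).

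Among the intracellular syntaxins, STX10, which acts in retrograde traffic to the trans-Golgi network, had 25.4 and 18.9 scaled FPKM in shPTPRN3, against 53.1 and 31.9 in shNC. The groups did not overlap, with shNC replicate 1 far above the rest (log2 fold change -0.88, SE 0.39; limma, adjusted p = 0.337). STX16, a syntaxin of the same compartment, had 37.2 and 44.4 in shPTPRN3, against 23.1 and 25.8 in shNC. Here the order was reversed and both groups were tight (log2 fold change 0.71, SE 0.35; limma, adjusted p = 0.390). STX17, which serves the fusion of autophagosomes with lysosomes, had 4.83 and 6.01 in shPTPRN3, against 1.56 and 2.86 in shNC. It showed the largest positive value of the class (log2 fold change 1.02, SE 0.35; limma, adjusted p = 0.192). The endosomal STX12 had 12.4 and 16.0 in shPTPRN3, against 7.01 and 8.70 in shNC (log2 fold change 0.78; limma, adjusted p = 0.338), and STX7 was also higher in both shPTPRN3 libraries. STX8 had 21.8 and 11.2 in shPTPRN3, against 21.8 and 16.3 in shNC, so that its groups overlapped. For STX5, STX6 and STX18 the groups overlapped as well, with log2 fold changes of -0.11, 0.40 and -0.15. The class total stood at 148 and 147 scaled FPKM in shPTPRN3, against 152 and 129 in shNC.

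Among the vesicle SNAREs, VAMP3, or cellubrevin, a form found in most cells, had the highest level in 3 of the 4 libraries and VAMP5 in shNC replicate 1. VAMP3 had 78.7 and 74.4 scaled FPKM in shPTPRN3, against 67.3 and 69.9 in shNC, which do not overlap but lie close (log2 fold change 0.15; limma, adjusted p = 0.911). VAMP2, or synaptobrevin, the vesicle SNARE of synapses and secretory granules, had 30.9 and 43.0 in shPTPRN3, against 17.4 and 15.0 in shNC. Each knockdown value was well above both control values (log2 fold change 1.13, SE 0.36; limma, adjusted p = 0.167). The ratio of VAMP2 to VAMP3 was 0.393 and 0.578 in shPTPRN3, against 0.259 and 0.215 in shNC. VAMP5, first described in muscle, had 59.7 and 27.8 in shPTPRN3, against 94.8 and 38.9 in shNC. In both groups the library numbered 1 was more than 2 times the other, and the groups overlapped (log2 fold change -0.56, SE 0.52; limma, adjusted p = 0.686). All 4 deposited VAMP5 estimates lay above their own confidence bounds, at 62.8 FPKM (bounds 40.6 to 47.7) and 26.2 (15.9 to 23.2) in shPTPRN3 and at 98.4 (64.7 to 76.0) and 37.9 (23.6 to 31.8) in shNC, and all 4 VAMP3 estimates lay above theirs too. Without shNC replicate 1 the log2 fold change of VAMP5 was 0.067. Its neighbour VAMP8, 2399 bases away on chromosome 2, showed the same pattern between numbers, at 2.54 and 1.34 in shPTPRN3 and 3.03 and 1.05 in shNC. The half-widths of its deposited intervals were wide, at 26.7% and 62.3% in shPTPRN3 and 34.9% and 61.0% in shNC. Those intervals imply 10.3 fragments in shPTPRN3 replicate 2 and 10.7 in shNC replicate 2. VAMP5 and VAMP8 both have short transcripts (medians of 689 and 774 bases). Transcripts under 1000 bases held 41.1% and 33.1% of all scaled FPKM in the shPTPRN3 libraries and 48.6% and 36.0% in the shNC libraries. The part of this in the VAMP5 and VAMP8 values was not tested beyond removing a trend with transcript length, which gave -0.39 for VAMP5. VAMP1, a synaptobrevin paralogue, moved in the opposite way between the numbers, with 4.95 and 12.0 in shPTPRN3, against 2.92 and 8.80 in shNC. VAMP7, of lysosome-related traffic, had 9.62 and 19.3 in shPTPRN3, against 7.17 and 10.9 in shNC, summed over its identical copies on chromosomes X and Y. VAMP4 ranged from 2.48 to 2.90.

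In the SNAP25 family the neuronal and the general form had opposite signs. SNAP25, which pairs with STX1A and VAMP2 in neurons, had 28.5 and 10.2 scaled FPKM in shPTPRN3, against 7.15 and 5.95 in shNC. Replicate 1 of shPTPRN3 stood far above the other 3 libraries (log2 fold change 1.27, SE 0.46; limma, adjusted p = 0.226). SNAP23, its ubiquitous counterpart, had 10.7 and 12.5 in shPTPRN3, against 16.6 and 16.9 in shNC. The groups did not overlap and each was tight (log2 fold change -0.50, SE 0.34; limma, adjusted p = 0.545). SNAP25 stood at 2.66 and 0.814 times SNAP23 in shPTPRN3, against 0.430 and 0.352 times in shNC. SNAP29, which acts with STX17 on autophagosomes, had 11.7 and 13.4 in shPTPRN3 and 13.4 and 12.7 in shNC. SNAP47 had 17.6 and 19.6 in shPTPRN3 and 17.7 and 11.6 in shNC, and it shares exon sequence with JMJD4 on the other strand.

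**Figure D4:**
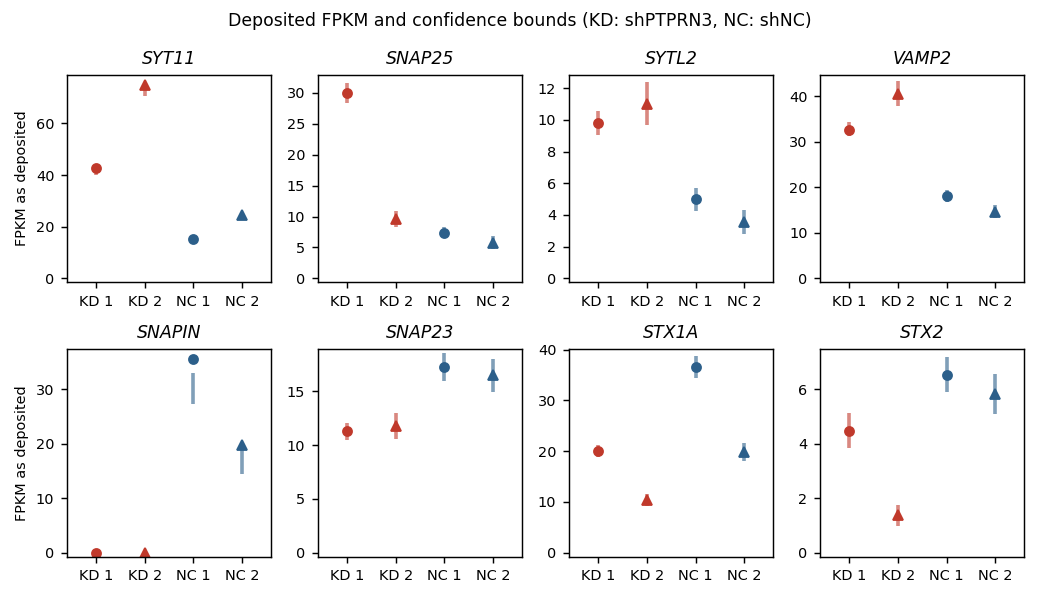
Deposited FPKM (linear axes from 0) of 8 genes in the shPTPRN3 (KD) and shNC (NC) libraries; vertical lines are the bounds deposited for each library, which do not hold the spread between libraries. The bounds of both KD libraries lie above those of both NC libraries for SYT11, SYTL2 and VAMP2, and below them for SNAP23; SNAPIN is at 0 in both KD libraries.

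Synaptotagmin expression was largely that of 1 gene. SYT11, a synaptotagmin that does not bind calcium, had 40.6 and 79.6 scaled FPKM in shPTPRN3, against 14.7 and 25.0 in shNC. Every shPTPRN3 value exceeded every shNC value, and the log2 fold change of 1.52 (2.86-fold) with an SE of 0.44 was the largest of the set (limma, adjusted p = 0.130). Its deposited confidence bounds were 40.2 to 42.4 and 70.6 to 75.9 FPKM in shPTPRN3, against 14.2 to 15.98 and 22.6 to 25.5 FPKM in shNC, so the bounds of libraries in the same group did not meet either. The deposited estimate of 42.7 FPKM in shPTPRN3 replicate 1 lay just outside its own bounds, as did that of STXBP3 in the same library. SYT1, the calcium sensor of fast transmitter release, stayed between 1.04 and 2.28 scaled FPKM with overlapping groups. SYT14 ranged from 0.789 to 3.32, again with overlap. All remaining synaptotagmins were below 1, SYT13 (0.312 to 0.955) and SYT3 (0.0635 to 0.351) being the highest of them. Of the synaptotagmin-like proteins, which bind RAB27 on secretory vesicles, SYTL2 had 9.29 and 11.7 in shPTPRN3, against 4.79 and 3.62 in shNC. The groups were clearly apart (log2 fold change 1.14, SE 0.34; limma, adjusted p = 0.141). SYTL3 had 3.03 and 3.71 in shPTPRN3 and 3.20 and 2.32 in shNC, and SYTL5 did not exceed 0.442.

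Of the 7 syntaxin-binding proteins, 3 were tested, with fold changes above 0 and adjusted p of 0.482 or more by limma. STXBP3, the Munc18 protein that binds STX4, had 14.9 and 19.2 scaled FPKM in shPTPRN3, against 9.87 and 12.3 in shNC. Its groups were apart, as those of STX4 were (log2 fold change 0.58, SE 0.35; limma, adjusted p = 0.482). STXBP5, or tomosyn, which blocks SNARE assembly, had 3.10 and 4.59 in shPTPRN3, against 1.57 and 3.64 in shNC, with overlap. The antisense gene STXBP5-AS1 shares 257 bases with it and had 1.81 and 1.88 in shPTPRN3, while it was listed at 0 in both shNC libraries, so the values of STXBP5 are uncertain. Exon overlap with other genes also touches further tested members, among them VAMP1 (TAPBPL), STX18 (NSG1), NAPA (NAPA-AS1) and SYTL3 (MIR3918). STX16 overlaps STX16-NPEPL1 over 28244 bases on the same strand, exons included. STX16-NPEPL1 was listed at 0 in all 4 libraries, and reads of the 2 genes may have been exchanged. STXBP2, STXBP4, STXBP5L and STXBP6 all stayed below 1 scaled FPKM.

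Both components of the disassembly step were higher in the shPTPRN3 libraries without passing the threshold. NAPA had 175 and 231 scaled FPKM in shPTPRN3, against 142 and 92.3 in shNC. The groups did not overlap, but the gap between their nearest values was smaller than that between the control libraries (log2 fold change 0.81, SE 0.45; limma, adjusted p = 0.447). NSF had 21.5 and 28.4 in shPTPRN3, against 10.9 and 17.3 in shNC (log2 fold change 0.80, SE 0.37; limma, adjusted p = 0.362). The value of NSF is a sum over 3 table rows, 2 of them on alternate sequences, and its pseudogene NSFP1 overlaps it on the same strand with 16.7 and 29.1 in shPTPRN3 and 4.71 and 18.3 in shNC, so reads of NSF and NSFP1 may have been exchanged.

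SNAPIN, a SNAP25-binding subunit of the complex that matures lysosome-related organelles, was listed at 0 in both shPTPRN3 libraries, against 34.4 and 20.2 scaled FPKM in shNC. The deposited upper bounds in shPTPRN3 were 0.0920 and 0.237 FPKM. The shNC replicate 1 estimate of 35.7 deposited FPKM lay outside its own bounds of 27.3 to 32.9. SNAPIN (chr1:153658654-153661852, hg38, plus strand) overlaps ILF2 on the other strand by 65 bases, tail to tail, and ILF2 had 42.0 and 44.1 in shPTPRN3, against 70.9 and 53.5 in shNC. In all, 44 genes were listed at 0 in both shPTPRN3 libraries and at 1 or more in both shNC libraries, and all 44 overlapped another gene of the tables. The reverse held for 20 genes, all of them overlapping too. The share of all genes that overlap another was not determined, so these counts have no background beside them. Since an exact 0 may come from a failed estimate, no fold change is given for SNAPIN. With genes listed at 0 kept in the fit, SNAPIN was the only member called, as lower (limma, adjusted p = 0.00466), beside 0.079% of 11390 genes called higher, 0.342% called lower and 0.421% either. SNAP91, an endocytic adaptor that the naming rule also takes in, did not exceed 0.0403.

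Start-site regions of 300 bases (RefSeq, GRCh38.p14) are shown for SYT11 and VAMP2, the members with the largest positive fold changes among those with an entry, and for STX1A, the syntaxin partner of VAMP2, whose fold change was negative. Capitals mark GC boxes (GGGCGG on either strand):
SYT11, chr1:155859317-155859616, plus strand: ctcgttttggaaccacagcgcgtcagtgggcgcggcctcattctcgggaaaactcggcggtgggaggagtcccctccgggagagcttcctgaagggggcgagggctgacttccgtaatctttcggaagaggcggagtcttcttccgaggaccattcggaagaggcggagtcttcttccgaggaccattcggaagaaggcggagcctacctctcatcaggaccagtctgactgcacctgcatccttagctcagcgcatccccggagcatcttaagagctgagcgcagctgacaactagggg
VAMP2, chr17:8162827-8163126, minus strand: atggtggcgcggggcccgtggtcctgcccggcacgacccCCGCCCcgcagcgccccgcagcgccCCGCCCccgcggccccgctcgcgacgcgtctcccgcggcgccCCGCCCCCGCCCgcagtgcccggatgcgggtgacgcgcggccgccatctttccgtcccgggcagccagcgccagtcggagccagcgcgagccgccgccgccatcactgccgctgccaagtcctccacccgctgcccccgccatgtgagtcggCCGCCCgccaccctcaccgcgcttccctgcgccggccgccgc
STX1A, chr7:73719620-73719919, minus strand: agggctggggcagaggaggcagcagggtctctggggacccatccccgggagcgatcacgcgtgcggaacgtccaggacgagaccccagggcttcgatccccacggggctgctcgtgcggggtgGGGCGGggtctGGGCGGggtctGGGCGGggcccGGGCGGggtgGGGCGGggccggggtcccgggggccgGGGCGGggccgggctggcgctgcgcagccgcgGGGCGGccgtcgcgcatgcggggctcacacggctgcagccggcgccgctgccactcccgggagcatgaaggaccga

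GC boxes were found in 24 of the 30 tested members with an entry (80.0%), against 71.4% of 8766 tested genes. The VAMP2 window holds 5, the STX1A window 7 and the SYT11 window none. Of members with negative fold changes that are not shown, the STX10 and STX2 windows hold 3 each and the SNAP23 window 0. The part of this element in the fold changes was not tested. The E-box CACGTG was in 5 of the 30 (16.7%, against 10.6%), the cAMP response element TGACGTCA in 2 (6.67%, against 3.54%) and the CCAAT box in 9 (30.0%, against 36.9%). These are matches of letters, on either strand, and no binding was measured.

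Other genes of the exocytic machinery were taken from a list of 58 that shares no gene with the set, of which 41 were tested. CADPS, the priming factor of dense-core vesicles, had 8.66 and 7.47 scaled FPKM in shPTPRN3, against 1.24 and 1.79 in shNC. It was the only gene of the list called higher (log2 fold change 1.86, SE 0.33, adjusted p = 0.0269 by limma). None was called lower, and 2 were lower at an unadjusted p under 0.05 (limma). Of all genes tested, 0.378% were called higher and 1.57% lower. Both shPTPRN3 values lay above both shNC values for 15 of the 41 (36.6%, against 21.7% of all genes). They lay below for 6 (14.6%, against 23.0%). The next values upward were 0.67 for ESYT2, a tether between endoplasmic reticulum and plasma membrane, 0.66 for the exocyst subunit EXOC8 and 0.63 for BLOC1S6. At the other end, the Golgi SNARE BET1L had 6.80 and 4.11 in shPTPRN3, against 16.8 and 14.1 in shNC (log2 fold change -1.38, SE 0.36; limma, adjusted p = 0.0956), followed by the SNARE BNIP1 (-0.92), DTNBP1 (-0.81) and the SNARE VTI1A (-0.81). The list's median log2 fold change was 0.08, with 22 genes above 0 and 19 below. The partners of SNAPIN in its complex differed in sign, with log2 fold changes of 0.18 for BLOC1S1, 0.24 for BLOC1S2, 0.23 for BLOC1S3, -0.09 for BLOC1S4, 0.63 for BLOC1S6 and -0.81 for DTNBP1, while BLOC1S5 was listed at 0 in all 4 libraries. Complexins, UNC13A, DOC2A, DOC2B and RPH3A, which act in transmitter release, did not exceed 0.213 scaled FPKM. Related genes of the list were above 1 in every library, with UNC13B at 2.58 to 5.24, CADPS2 at 1.08 to 2.31 and RIMS3 at 8.37 to 13.5. CADPS missed the threshold on FPKM as deposited (adjusted p = 0.0606), on TPM (0.0766), with no minimum mean (0.115) and with genes listed at 0 kept (0.0666), all by limma.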

How the data were processed

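Libraries (2 shPTPRN3, 2 shNC) were made with a strand-marking kit for mRNA, as the labels' protocols state. Cufflinks 2.2.1.2, STAR 2.6.0b-1 and FastQC 0.72 are named, with hg38, per the submitters' processing notes. The annotation and strand option: not given in the sources used here. Reads of overlapping genes may therefore have been assigned to the wrong one. The deposited values are FPKM with confidence bounds and a status for 33646 gene rows per library, per the file headers. They hold no counts.

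Gene rows not marked OK in every library (651, none of a member) were left out and the rest summed per symbol (27940 symbols). A median ratio set the scale of each library, over 9988 genes at 1 or more in every library (factors 0.950, 1.06, 0.964 and 1.03 for shPTPRN3 replicates 1 and 2 and shNC replicates 1 and 2). Genes above 0 in all 4 libraries with a mean of at least 1 were tested with limma 3.58.1 (R 4.3.3) on log2(scaled FPKM + 1), eBayes with a trend, two-sided, Benjamini-Hochberg over all genes, threshold 0.05. The eBayes prior held 8.32 degrees of freedom against 2 residual ones, so much of the spread used for a gene came from other genes. The pseudocount understates the changes of low genes. Library depth comes from the widths of the deposited intervals of genes with 1 exon, taken at full transcript length. Transcripts are GENCODE 29, promoters RefSeq. The gene set, lists, test and named genes were chosen with earlier results of these data known. Genes were named for the largest fold changes in each direction, the highest levels per class and a listing at 0. STX5, STX6, STX7, STX12, STX18, SNAP29, VAMP1, VAMP4, VAMP7, VAMP8, BLOC1S1 to BLOC1S5, UNC13B, CADPS2, RIMS3 and genes named as low were added after their values were seen. Alternatives covered scaling, pseudocount, filters, status, eBayes settings, the replicate number as a block, each library left out and, added after seeing the data, removal of a trend with transcript length. Values of 2 tested members are not reported here one by one. Python 3.11.15 with pandas 2.3.3, numpy 2.4.6, scipy 1.17.1 and matplotlib 3.10.9 was used.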

Additional observations from a re-analysis of the deposited data

How the results depend on the processing

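With 2 libraries a group, single libraries decide calls. Members called higher numbered 0 to 1 when each library was left out, and 1 member (SNAPIN) was called lower with genes listed at 0 kept. All genes called higher and lower numbered 16 and 66 on TPM, 10 and 46 at a mean of at least 5, 9 and 39 with genes listed at 0 kept, 22 and 89 with eBayes without a trend, and 82 higher with the transcript length trend removed. By limma both were 0 on FPKM as deposited and with no minimum mean, where 1547 and 2001 genes had an unadjusted p under 0.05. Without each library in turn they ran from 37 to 191 higher and from 70 to 412 lower. CADPS, the 1 called gene of the other exocytosis list, was not called on FPKM as deposited, on TPM, at a mean of at least 5 (where it was not tested), with no minimum mean or with genes listed at 0 kept, which left 0 of that list by limma (3, 2, 1, 2 and 2 genes at an unadjusted p under 0.05); genes of that list called lower numbered 0 to 1 without each library. The median log2 fold change of the members was 0.47 on TPM, 0.49 at a mean of at least 5, 0.50 with the pseudocount set to 0.1, 0.16 with no minimum mean, 0.34 with the transcript length trend removed and 0.25 to 0.59 without each library. PTPRN missed the threshold on FPKM as deposited (-2.23, adjusted p = 0.0606), with no minimum mean (-2.22, adjusted p = 0.113) and with genes listed at 0 kept (-2.22, adjusted p = 0.0592), by limma.

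Leaving out each library in turn gave log2 fold changes of -0.70 to 0.20 for STX8 (above 0 without shPTPRN3 replicate 2), -0.75 to 0.52 for SYT14 (above 0 without shNC replicate 2, and 0.16 without shPTPRN3 replicate 1) and -1.20 to 0.067 for VAMP5 (above 0 without shNC replicate 1). Alternatives that change only the filter, the eBayes settings or the block leave a fold change as it is, so no sign could change there. Of the named genes counted next, only CADPS was called in the fit described above. The others could only stay uncalled or pass. Of 456 values of named genes under alternatives, 427 kept their direction and side of the threshold, 21 passed it in addition, 4 (all of CADPS) no longer passed it and 4 changed sign.

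The replicate numbers are not stated to mark shared cultures or days. Libraries of the same number deviated together (r = 0.582 across 11125 genes, which are not independent). With the replicate number as a block, limma called 1124 of 11125 genes higher and 1331 lower. Of the 35 tested members it called 12 higher and 3 lower. Those higher included SYT11, SNAP25, SYTL2, VAMP2, STX17, STX4, NAPA, NSF, STX12, STX16 and STX3, and those lower were STX2, STX10 and STX1A. Of the 41 tested genes of the other exocytosis list, it called 1 higher (CADPS) and 5 lower. The block leaves 1 residual degree of freedom. The cause of these shifts was not tested.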
